A study of Mus musculus with 15 samples.

Results

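Cyp2b10 and 7 other genes of cytochrome P450 metabolism were followed in mouse adipose tissue with and without an IL-33 knockout label. The 8 genes, of 37991 in the count table, were the P450 enzymes Cyp2b10, Cyp2e1, Cyp2f2, Cyp1b1, Cyp4b1 and Cyp7b1, the electron donor Por and the nuclear receptor gene Nr1i3, each found by its Ensembl identifier. Cyp2b10 was chosen by its measured counts, which were much higher in the inguinal libraries labelled knockout, so its values in that tissue are described without a test. The other genes are tested from a fit over all genes.

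All mice were C57BL/6 and either wild type or labelled IL-33-/-, a line lacking a cytokine that is released from damaged or stressed cells. Inguinal white adipose tissue was taken at postnatal day 24, with 4 wild-type and 3 labelled knockout libraries, the latter numbered 2 to 4. Brown adipose tissue was taken at postnatal day 0.5, with 4 wild-type and 4 labelled knockout libraries. Tissue and age differed together and cannot be told apart. The sources used here do not give which part of Il33 was deleted, nor whether each library is a separate animal, so p-values measure only the spread between libraries.

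Cytochrome P450 enzymes are heme proteins of the endoplasmic reticulum or the mitochondria that oxidise drugs, steroids, fatty acids and retinoids. Those of the endoplasmic reticulum take their electrons from cytochrome P450 reductase, the product of Por. In liver, the constitutive androstane receptor CAR, the product of Nr1i3, switches on Cyp2b10 when a xenobiotic such as phenobarbital is present, and Cyp2b10 is the standard readout of that receptor in mice.

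Total counts ran from 26059635 to 53923009 per library. Levels are counts-per-million values scaled by the trimmed mean of M-values over all 15 libraries (CPM), with means ± SD. Il33 itself was at 3.45, 4.61, 3.81 and 3.55 CPM in inguinal wild-type libraries 1 to 4, against 0.346, 0.471 and 0.0791 CPM in labelled knockout libraries 2 to 4, a log2 change of -3.73 (SE 0.36, edgeR quasi-likelihood test, adjusted p = 1.25e-05). In brown tissue it was at 1.82, 3.21, 2.01 and 1.73 CPM in wild-type libraries 1 to 4, against 0.413, 1.75, 1.41 and 0.594 CPM in labelled knockout libraries 1 to 4. The brown groups overlapped, with a log2 change of -1.08 (SE 0.44, adjusted p = 0.229), so Il33 separated the labels in inguinal but not in brown tissue, and every brown direction below is a direction by label. All 10 adipocyte markers and all 12 brown and beige adipocyte markers had counts in every library, and the brown libraries also carried skeletal muscle markers summing to 2456 to 4312 CPM. The RNA is from whole tissue, so fewer cells of a type and less RNA per cell cannot be told apart.

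The upstream stretches of the 3 genes whose inguinal levels are largest in difference are shown first, so that the genes that were higher (Cyp2b10 and Cyp2f2) can be read beside the one that was lower (Cyp4b1). Each is the 250 bases before the RefSeq start on the gene's own strand, 5′ to 3′, in GRCm38.p6, a build other than the mm9 named for the counts. Capitals mark matches, on either strand, to any of the 7 motifs searched: TTGCNNAA (C/EBP), TTATGTAA (PAR bZIP factors such as Dbp), TATAAA (the core promoter box), CACGTG (E-box), GCGTG (core of the aryl hydrocarbon receptor site), CCAAT (bound by NF-Y), and AGGTCA (a nuclear receptor half-site).
Cyp2b10, chr7:25897408-25897657, plus strand: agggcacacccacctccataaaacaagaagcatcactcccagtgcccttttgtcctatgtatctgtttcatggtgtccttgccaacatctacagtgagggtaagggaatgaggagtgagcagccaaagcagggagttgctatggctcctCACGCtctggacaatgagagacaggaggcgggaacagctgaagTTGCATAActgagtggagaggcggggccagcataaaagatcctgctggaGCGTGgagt
Cyp2f2, chr7:27119705-27119954, plus strand: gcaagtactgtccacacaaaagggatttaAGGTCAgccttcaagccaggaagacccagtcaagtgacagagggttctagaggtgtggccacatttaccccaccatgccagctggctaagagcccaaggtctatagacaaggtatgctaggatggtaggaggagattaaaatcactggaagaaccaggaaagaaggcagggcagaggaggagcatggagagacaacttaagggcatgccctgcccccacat
Cyp4b1, chr4:115647722-115647971, minus strand: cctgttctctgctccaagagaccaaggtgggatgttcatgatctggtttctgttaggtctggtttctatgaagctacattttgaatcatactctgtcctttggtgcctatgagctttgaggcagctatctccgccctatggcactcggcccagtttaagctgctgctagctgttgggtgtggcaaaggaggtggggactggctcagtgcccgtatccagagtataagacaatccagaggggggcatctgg
Cyp2b10 had TTGCNNAA starting 58 bases before the start, a motif that 9.56% of the 32851 promoters in the table held, and 2 matches to GCGTG, which 28.2% held. Cyp2f2 had AGGTCA 221 bases before the start, which 14% held. The Cyp4b1 window had no match to any of the 7. No motif was shared by the Cyp2b10 and Cyp2f2 windows. Of the other genes, Por had 3 matches to GCGTG and Cyp1b1 had 1. Cyp2e1 had TATAAA 31 bases before its start (12.4% of promoters) and 2 matches to CCAAT (33.8%), and Nr1i3 had CACGTG 244 bases before (6.02%). A match is a run of letters and was not tested as a binding site. Only these 250 bases were searched, so a missing match says nothing about sites farther from the start. RefSeq entries were found for 7 of the 8 genes, Cyp7b1 being the exception.

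Cyp2b10 (ENSMUSG00000030483) went from near the counting floor to a moderate level in inguinal tissue. It was at 0.260, 0.230, 0.381 and 0.323 CPM in wild-type libraries 1 to 4 (8 to 18 counts each), against 52.4, 44.6 and 36.5 CPM in labelled knockout libraries 2 to 4 (1326 to 1517 counts each). All 3 labelled knockout libraries stood far above all 4 wild-type ones, at 44.5 ± 7.95 against 0.299 ± 0.067 CPM. The log2 difference of 7.23 (SE 0.19) was the highest of the 15710 genes fitted, which is the reason the gene was chosen. As a share of all P450 counts, Cyp2b10 made up 0.0149% to 0.0272% in the wild-type libraries and 1.84% to 2.97% in the labelled knockout ones.

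In brown tissue Cyp2b10 was present without any knockout label and varied widely. It was at 8.19, 8.76, 1.60 and 6.83 CPM in wild-type libraries 1 to 4 (6.35 ± 3.26), against 0.385, 45.9, 15.4 and 25.3 CPM in labelled knockout libraries 1 to 4 (21.7 ± 19.1). Labelled knockout libraries 2 to 4 lay above every wild-type library, and library 1, with 14 counts, lay below every one. The groups therefore overlapped, and the test missed the threshold at a log2 difference of 1.77 (SE 0.96, edgeR adjusted p = 0.355). Without labelled knockout library 1 it was 2.18 (SE 0.57, adjusted p = 0.0395). Over the 8 fits that each left out 1 library it ran from 1.12 to 2.18, with adjusted p from 0.0395 to 0.650. Library 1 had the lowest Il33 level of the brown labelled knockout libraries (0.413 CPM). Without it the Il33 log2 change was -0.82 (SE 0.37, edgeR adjusted p = 0.149). The wild-type brown level was above the wild-type inguinal level in every library, by 4.41 on the log2 scale (SE 0.56), which is described without a test. The brown libraries labelled knockout and the inguinal ones overlapped in their Cyp2b10 level.

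**Figure D1:**
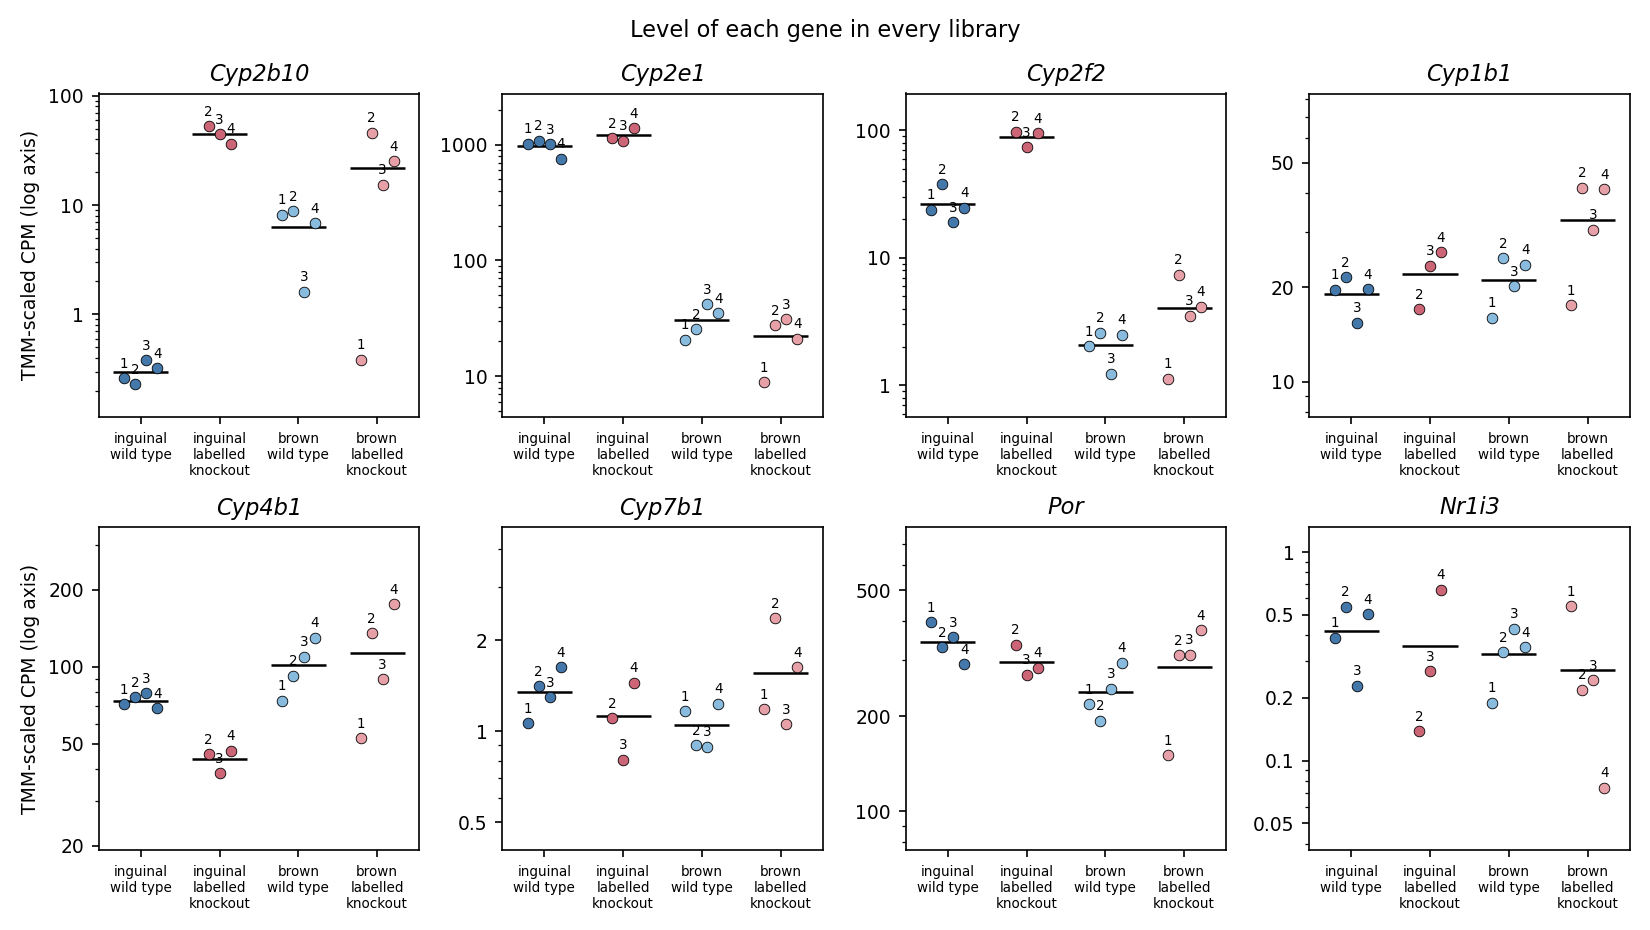
CPM of each of the 8 genes in every library (log axis), by tissue and label. Points are libraries, numbered as in the labels, and horizontal lines are group means. Cyp2b10 lay at 0.230 to 0.381 CPM in inguinal wild-type libraries and at 36.5 to 52.4 CPM in labelled knockout ones, and brown labelled knockout library 1 was the lowest brown library for Cyp2b10, Cyp2e1, Cyp2f2, Cyp4b1 and Por.

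The close relatives of Cyp2b10 did not share its level. Cyp2b23 had 0 counts in all libraries, and Cyp2b9 and Cyp2b13, which liver expresses, had at most 3 counts in any library. Cyp2b19, a keratinocyte enzyme, had 277 counts in brown labelled knockout library 4 (6.86 CPM) and at most 6 in any other. In that library the 8 skin and mammary epithelial markers summed to 221 CPM, and Krt5 was at 45.4 and Krt1 at 77.5 CPM. In the other brown libraries the sum was 2.08 to 4.35 CPM. The sources used here do not give how reads shared between Cyp2b copies were counted.

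Cyp2f2 (ENSMUSG00000052974), best known as a naphthalene-oxidising enzyme of airway club cells, rose in inguinal tissue. It was at 23.7, 37.7, 19.0 and 24.6 CPM in wild-type libraries 1 to 4, against 97.1, 73.5 and 94.8 CPM in labelled knockout libraries 2 to 4. The lowest labelled knockout library was above the highest wild-type one, and the means were 88.5 ± 13.0 and 26.3 ± 8.01 CPM. The log2 change was 1.76 (SE 0.20, edgeR adjusted p = 0.000226). Club and lung epithelial markers were near 0 throughout: the 7 markers together summed to 0.235 to 0.576 CPM in the inguinal libraries, and Sftpd was at 0 in all 15 libraries.

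In brown tissue Cyp2f2 was lower, and its lowest and highest library in each group were those of Cyp2b10. It was at 2.03, 2.58, 1.23 and 2.50 CPM in wild-type libraries and at 1.13, 7.37, 3.52 and 4.13 CPM in labelled knockout libraries 1 to 4. Library 1 was again below, and libraries 2 to 4 above, all wild-type libraries. The log2 difference was 0.94 (SE 0.48, adjusted p = 0.323), or 1.25 (SE 0.31, adjusted p = 0.0232) without library 1. With each library left out in turn it ran from 0.49 to 1.25 (edgeR adjusted p 0.0232 to 0.654). Part of the Cyp2f2 exons, 274 of 2025 bases, lies opposite the antisense gene Gm15883, which had 276 counts in all libraries together.

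Cyp4b1 (ENSMUSG00000028713), an enzyme that oxidises fatty acids and some protoxins, fell in inguinal tissue. It was at 71.4, 76.0, 78.9 and 69.0 CPM in wild-type libraries 1 to 4, against 45.6, 38.4 and 47.0 CPM in labelled knockout libraries 2 to 4. The groups did not overlap, at 73.8 ± 4.44 and 43.7 ± 4.63 CPM. The log2 change was -0.74 (SE 0.095, adjusted p = 9.54e-05). The call was lost when all 4 groups shared a fit, with an adjusted p of 0.112.

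Cyp4b1 in brown tissue was at 73.8, 92.2, 109.6 and 130.1 CPM in wild-type libraries 1 to 4, against 52.7, 135.2, 89.4 and 175.6 CPM in labelled knockout libraries 1 to 4. The labelled knockout libraries held both the lowest and the highest value, and the log2 difference was 0.15 (SE 0.33, adjusted p = 0.841). It was -0.14 without labelled knockout library 4.

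Cyp2e1 (ENSMUSG00000025479), the ethanol- and acetone-oxidising enzyme, was by far the most abundant P450 in inguinal tissue. It was at 1016, 1082, 1012 and 753 CPM in wild-type libraries 1 to 4, against 1132, 1084 and 1381 CPM in labelled knockout libraries 2 to 4. It took 63.4% to 70.8% of all P450 counts in the wild-type libraries and 64.0% to 69.4% in the labelled knockout ones. The groups did not overlap, but the gap between the nearest libraries was small and the log2 difference of 0.32 (SE 0.13) missed the threshold in edgeR (adjusted p = 0.0709). It passed in DESeq2 (adjusted p = 0.0443) and with no filter on low counts (adjusted p = 0.0322). Over all 13 alternative fits, left-out libraries included, the difference ran from 0.22 to 0.39 and the adjusted p from 0.0322 to 0.562.

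In newborn brown tissue Cyp2e1 was at 20.7, 25.5, 41.7 and 34.9 CPM in wild-type libraries 1 to 4, against 8.92, 27.6, 31.0 and 21.1 CPM in labelled knockout libraries 1 to 4. These groups overlapped, with a log2 difference of -0.48 (SE 0.36, adjusted p = 0.510). Its share of P450 counts was 6.02% to 9.83% in brown wild-type and 2.84% to 6.46% in brown labelled knockout libraries.

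Cyp1b1 (ENSMUSG00000024087), an estrogen- and retinoid-oxidising enzyme under the aryl hydrocarbon receptor, was at similar levels in both tissues. In inguinal tissue it was at 19.6, 21.6, 15.4 and 19.7 CPM in wild-type libraries 1 to 4, against 17.0, 23.5 and 25.9 CPM in labelled knockout libraries 2 to 4. The groups overlapped (log2 difference 0.22, SE 0.14, adjusted p = 0.262), and without labelled knockout library 2 the difference was 0.37 (adjusted p = 0.0365). With each inguinal library left out in turn it ran from 0.10 to 0.37 (edgeR adjusted p 0.0365 to 0.648). In brown tissue it was at 16.0, 24.8, 20.2 and 23.6 CPM in wild-type libraries and at 17.6, 41.6, 30.6 and 41.2 CPM in labelled knockout libraries 1 to 4. Libraries 2 to 4 lay above all wild-type libraries and library 1 among them. The log2 difference was 0.62 (SE 0.26, edgeR adjusted p = 0.239). It passed in limma-voom (adjusted p = 0.0169) and in edgeR without library 1 (0.83, SE 0.16, adjusted p = 0.00877). With each library left out in turn it ran from 0.49 to 0.83 (edgeR adjusted p 0.00877 to 0.491).

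Cyp7b1 (ENSMUSG00000039519), an oxysterol hydroxylase, was close to 1 CPM in all groups. Its range was 1.06 to 1.63 CPM in inguinal wild-type and 0.807 to 1.45 CPM in labelled knockout libraries (log2 difference -0.25, SE 0.28, adjusted p = 0.535). In brown tissue it was 0.888 to 1.24 CPM in wild-type and 1.06 to 2.37 CPM in labelled knockout libraries (0.56, SE 0.30, adjusted p = 0.349). The groups overlapped in both tissues.

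Por (ENSMUSG00000005514), the shared electron donor, did not follow Cyp2b10 in inguinal tissue. It was at 397, 330, 355 and 292 CPM in wild-type libraries 1 to 4, against 336, 271 and 285 CPM in labelled knockout libraries 2 to 4. The groups overlapped, with a log2 difference of -0.20 (SE 0.12, adjusted p = 0.225). In brown tissue it was at 218, 193, 244 and 295 CPM in wild-type libraries and at 150.1, 312, 312 and 373 CPM in labelled knockout libraries 1 to 4. Libraries 2 to 4 exceeded every wild-type library while library 1 was the lowest of the 8 (log2 difference 0.26, SE 0.25, adjusted p = 0.615). Without library 1 the difference was 0.48 (SE 0.14, adjusted p = 0.0443). With each library left out in turn it ran from 0.12 to 0.48 (edgeR adjusted p 0.0443 to 0.893).

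Nr1i3 (ENSMUSG00000005677), which encodes CAR, was barely counted in any library. It had 6 to 28 counts in inguinal wild-type libraries, 4 to 25 in inguinal labelled knockout, 7 to 15 in brown wild-type and 3 to 20 in brown labelled knockout libraries, or 0.0743 to 0.659 CPM in all. The log2 differences were -0.20 in inguinal (SE 0.50, adjusted p = 0.802) and -0.27 in brown tissue (SE 0.53, adjusted p = 0.820). At these counts a change of moderate size was not detectable, the 95% interval in inguinal tissue running from -1.17 to 0.78. In addition, 3304 of its 4414 exonic bases lie opposite Tomm40l, so with the strand setting of the counting unstated its counts are uncertain.

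Of the 7 genes tested in inguinal tissue 2 passed, Cyp2f2 upward and Cyp4b1 downward. Of all genes fitted there 28.6% passed, so the count of 2 in 7 is near the background. Groups did not overlap for Cyp2e1, Cyp2f2 and Cyp4b1 among these 7, beside 36.9% of all genes. In brown tissue 0 of 8 passed in edgeR, beside 0.26% of all genes. Only Cyp1b1 had an unadjusted p under 0.05, beside 18.5% of all genes. Cyp1b1 alone passed in limma-voom, which called 19.6% of all genes, and 0 passed in DESeq2, which called 6.53%. The brown groups overlapped for all 8 genes, beside 9.74% of all genes whose groups did not. Without labelled knockout library 1, Cyp2b10, Cyp2f2, Cyp1b1 and Por passed, all higher, beside 18.1% of all genes in either direction and 9.66% higher. That library held the lowest brown value of Cyp2b10, Cyp2f2 and Por and the lowest labelled knockout value of Cyp1b1. Leaving it out therefore moves these differences up of itself, and the calls without it are given as a description. That library also had the lowest adipocyte marker sum of the brown libraries (17268 CPM, the others 19688 to 22022) and the lowest brown and beige marker sum (4694 CPM, the others 6124 to 10446). Its adipose progenitor marker sum was the highest of the brown libraries (3076 CPM, the others 1491 to 2635). These sums rest largely on a few members: Ucp1, Cidea, Fabp4 and Lpl were at their lowest brown level in that library and Col1a1 at its highest. Other members went the other way. Ebf2 (230 CPM) and Ppargc1a (96.7 CPM) were at their highest brown level there, Adipoq and Lipe were above most brown libraries, and Cd55 (15.1 CPM) was near its lowest. In the fit without labelled knockout library 1, 4 of 8 macrophage markers were higher and 0 lower, C1qa, C1qb, C1qc and Cd68, named after their values were seen. In that fit 2 of 12 brown and beige adipocyte markers were higher and 2 lower, and of 10 adipocyte markers 1 was higher and 1 lower. Of 13 progenitor markers 2 were higher, of 4 tested hepatocyte markers 1 was higher, of 8 endothelial markers 1 was lower, and 0 of 12 muscle, 0 of 4 B-cell, 0 of 3 T-cell and 0 of 4 epithelial markers passed. The part of this makeup in the gene values was not tested.

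**Figure D2:**
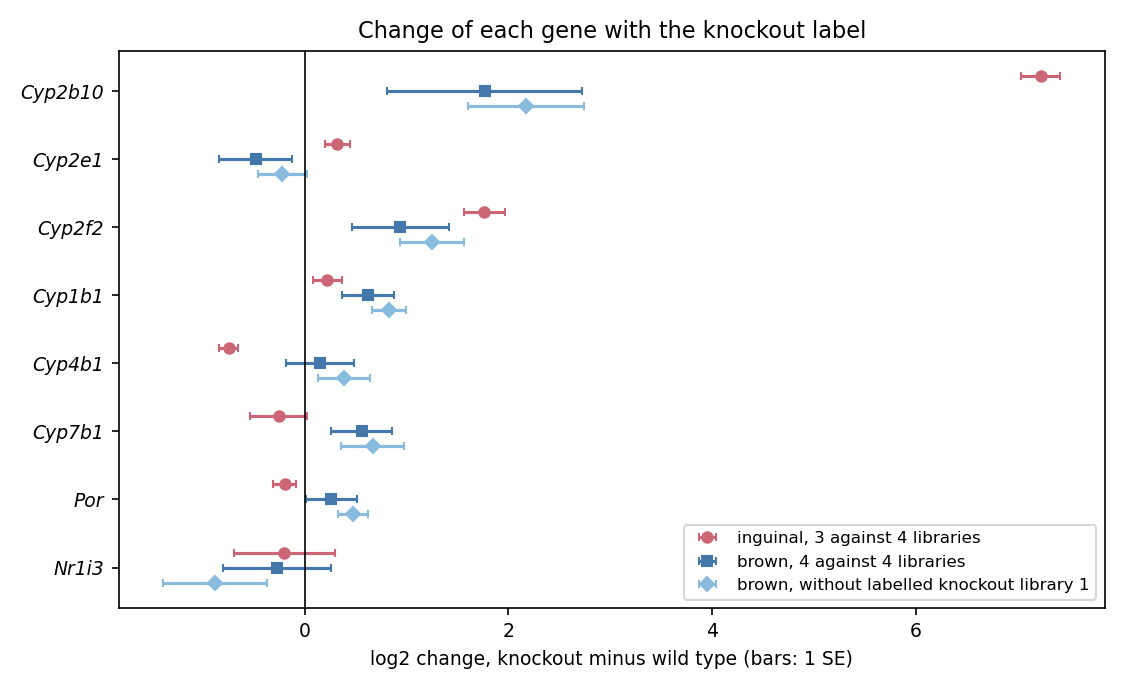
Log2 difference (labelled knockout minus wild type, bars 1 SE) for the 8 genes in inguinal tissue, in brown tissue and in brown tissue without labelled knockout library 1. Cyp2b10 stands at 7.23 in inguinal tissue, Cyp2f2 at 1.76 and Cyp4b1 at -0.74, and the brown differences for Cyp2b10, Cyp2f2, Cyp1b1 and Por move up when library 1 is left out.

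Whether the label differences themselves differed between tissues was tested for 7 genes in a fit of all groups. In edgeR 0 of 7 passed at the threshold, beside 9% of all genes. Cyp4b1 alone had an unadjusted p under 0.05 (inguinal minus brown -0.92, SE 0.40, edgeR adjusted p = 0.169), beside 25.7% of all genes. DESeq2 called 0 of the 7, beside 13.8% of all genes, and limma-voom called Cyp4b1 and Por, beside 21.7%. Cyp4b1 and Por also passed in edgeR without brown labelled knockout library 1, beside 21.2% of all genes, with -1.14 for Cyp4b1 (adjusted p = 0.0117) and -0.68 for Por (adjusted p = 0.0201). With each library left out in turn, Cyp4b1 ran from -1.14 to -0.62 (edgeR adjusted p up to 0.313) and Por from -0.68 to -0.33 (up to 0.556). For Cyp2f2 the difference was 0.81 (SE 0.57, adjusted p = 0.397), so its larger value in inguinal tissue was not separated from that in brown tissue. For Cyp2b10 it was 5.44 (SE 1.34), given as a description.

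Between the wild-type tissues, 4 of the 7 tested genes passed, beside 61.4% of all genes. In newborn brown tissue relative to day 24 inguinal tissue, Cyp2e1 stood at -4.97 on the log2 scale (SE 0.25, adjusted p = 3.44e-07), and Cyp2f2 stood at -3.65 (SE 0.27, adjusted p = 2.73e-06). Por stood at -0.53 (SE 0.13, adjusted p = 0.00425). Cyp4b1 was higher at 0.46 (SE 0.15, adjusted p = 0.0211), a call that was lost in the fit of all 4 groups (adjusted p = 0.174) and without brown library 3, inguinal library 1 or inguinal library 4 (adjusted p = 0.0532 to 0.0624).

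Set against exon length (CPM per kilobase of exon, GENCODE M21), the order of the 8 genes differed between groups. Cyp2b10 was chosen for its inguinal rise, so its change of rank there follows from that choice. In inguinal wild-type tissue the levels ran Cyp2e1 (448 ± 67.3), Por (85.4 ± 10.9), Cyp4b1 (32.7 ± 1.97), Cyp2f2 (13.0 ± 3.96), Cyp1b1 (3.27 ± 0.45), Cyp7b1 (0.624 ± 0.109), Cyp2b10 (0.141 ± 0.032) and Nr1i3 (0.0945 ± 0.032). Only the last 2 neighbours overlapped between libraries. In inguinal labelled knockout tissue Cyp2b10 stood at rank 4, at 21.1 ± 3.76, after Cyp2e1, Por and Cyp2f2, and overlapped with Cyp4b1 at 19.4 ± 2.05. In brown wild-type tissue Por (59.1 ± 10.9) and Cyp4b1 (45.0 ± 10.7) led and overlapped, and Cyp2b10 at 3.01 ± 1.55 overlapped with both its neighbours, Cyp1b1 and Cyp2f2. In brown labelled knockout tissue Cyp2b10 was at rank 3, at 10.3 ± 9.05, and overlapped with Cyp2e1 at 10.3 ± 4.51.

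The rest of the P450 family was then read as a whole. Of 92 P450 genes in the table, 68 had at least 1 count and 27 reached a mean of 1 CPM in some group. Summed P450 levels were 1188 to 1544 CPM in inguinal wild-type and 1679 to 1989 CPM in labelled knockout libraries, and 343.7 to 430.9 CPM in brown wild-type and 313.8 to 597.4 CPM in brown labelled knockout libraries. Of 27 tested P450 genes outside the 8, 6 rose and 2 fell in inguinal tissue (29.6%), a share close to the 28.6% of all genes. The median log2 difference of the 27 was 0.09 and that of all genes -0.02.

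Those that rose covered several functions. Cyp2d22, a drug-metabolising enzyme of the family that includes human CYP2D6, went from 31.2 ± 2.90 to 79.3 ± 9.39 CPM (log2 change 1.36, SE 0.10, adjusted p = 1.6e-06). Cyp27a1, a mitochondrial sterol hydroxylase gene, went from 24.7 ± 3.15 to 45.9 ± 3.76 CPM (0.90, SE 0.11, adjusted p = 5.87e-05). Cyp11a1, the side-chain cleavage enzyme that starts steroid synthesis, stayed low but rose from 0.658 ± 0.065 to 2.23 ± 0.237 CPM (1.77, SE 0.24, adjusted p = 0.000155). Smaller rises were seen for Cyp2u1 (1.24), Cyp4f17 (0.54) and the cholesterol synthesis gene Cyp51 (0.48). Those that fell were the fatty acid hydroxylase gene Cyp4v3, from 40.6 ± 4.57 to 25.9 ± 1.26 CPM (-0.63, SE 0.10, adjusted p = 0.000519), and the oxysterol enzyme gene Cyp39a1 (-0.43, adjusted p = 0.0387).

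In brown tissue 0 of 26 tested P450 genes outside the 8 passed in edgeR. An unadjusted p under 0.05 was seen for 6 of them, beside 18.5% of all genes. DESeq2 called 2 and limma-voom 7, beside 6.53% and 19.6% of all genes. Without labelled knockout library 1 the edgeR count was 6 higher and 1 lower of 27 (25.9%, beside 18.1% of all genes). The higher ones were Cyp2d22, Cyp2t4, Cyp4a10, Cyp4a32, Cyp4f13 and Cyp51 and the lower one was Cyp2u1, named after their values were seen.

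**Figure D3:**
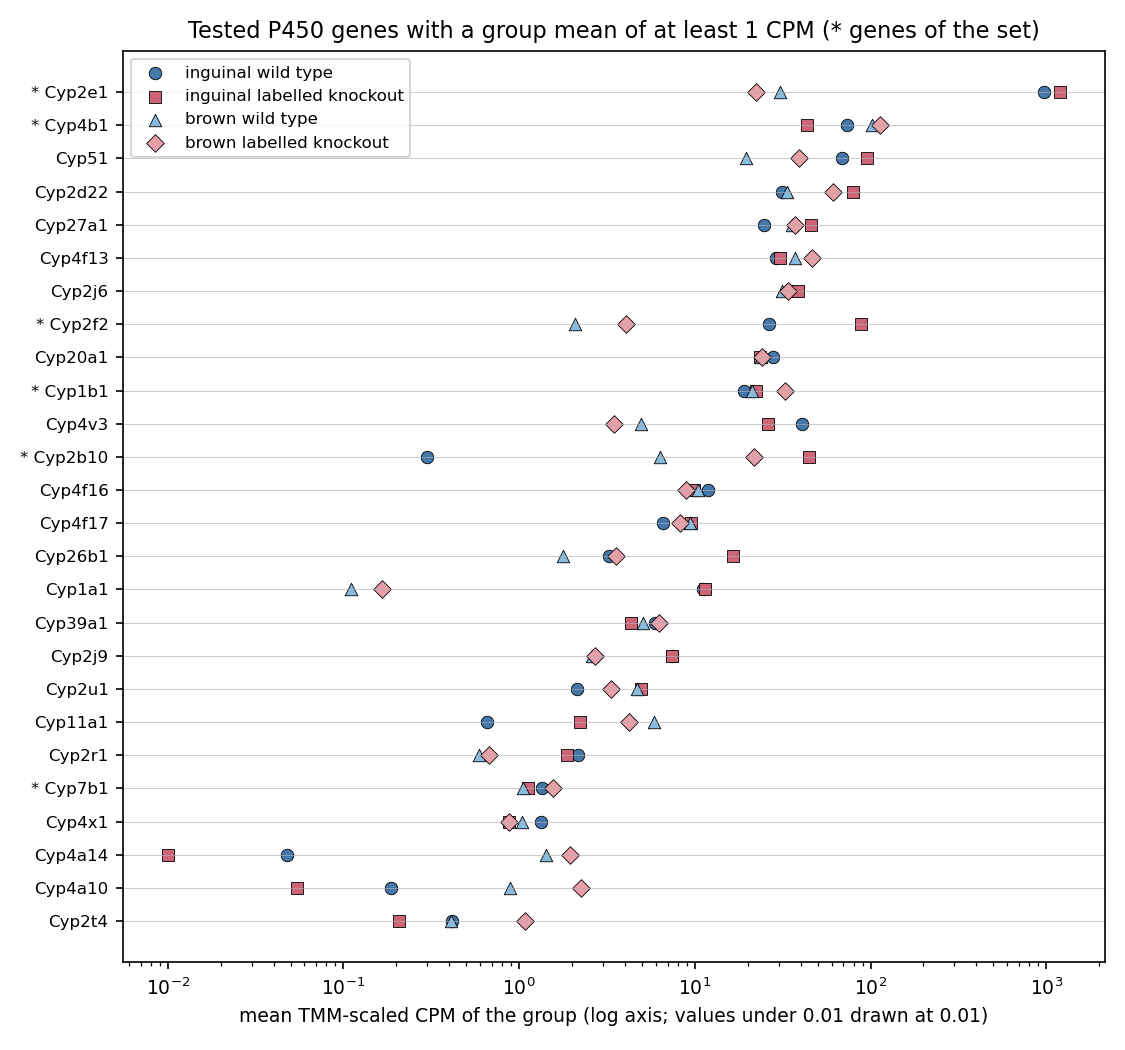
Mean CPM (log axis) in each of the 4 groups for the tested P450 genes that reach a mean of 1 CPM in some group, ordered by their mean over the groups, with an asterisk on those followed in detail. Cyp2e1 leads in inguinal tissue, and Cyp2b10 has the widest spread between the inguinal groups, from 0.299 to 44.5 CPM.

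The partners that P450 enzymes need were followed as a list of electron transfer and heme supply genes. In inguinal tissue 7 of 19 rose and 0 fell (36.8%, beside 28.6% of all genes), with a median log2 difference of 0.24 against -0.02 for all genes. Cyb5b, the cytochrome b5 of the outer mitochondrial membrane, went from 499.8 to 922 CPM (0.90, SE 0.11, adjusted p = 6.73e-05). Fech, which inserts the iron that completes heme, rose by 0.47 (SE 0.089, edgeR adjusted p = 0.00171). Alas1, the first enzyme of heme synthesis and itself a CAR target in liver, rose by 0.47 (SE 0.12, edgeR adjusted p = 0.008).

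Genes around CAR itself went in both directions. Of 14 tested xenobiotic receptors and partners, 4 rose and 1 fell in inguinal tissue (35.7%, beside 28.6% of all genes). Ahr, the aryl hydrocarbon receptor, fell (log2 change -0.79, SE 0.12, adjusted p = 0.000405), and the coactivator gene Ncoa1 rose by 0.54 (SE 0.096, adjusted p = 0.00104). Of 15 tested genes that CAR and its relative PXR switch on in liver, Cyp2b10 left out, 3 rose and 5 fell (53.3%). Gstm1 and Alas1 were among those that rose and Gstt3, a glutathione transferase gene, fell by 0.62 on the log2 scale (SE 0.12, adjusted p = 0.00218). Of 6 tested aryl hydrocarbon receptor targets 2 rose, Tiparp by 0.82 (SE 0.10, adjusted p = 8.56e-05) and Ugt1a6a by 0.90 (SE 0.14, adjusted p = 0.000464), while Nqo1 and Cyp1b1 did not pass (33.3% called). Of 12 tested targets of the oxidative stress factor NRF2, 6 rose and 0 fell (50%), among them G6pdx at 0.73 (SE 0.11, adjusted p = 0.000433).

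The substrate pathways gave mixed counts in inguinal tissue, with 38.5% of the first list and 36.4% of the second called beside 28.6% of all genes. Of 13 tested oxysterol and steroid pathway genes 2 rose, Cyp27a1 and Cyp51, and 3 fell, among them the estrogen receptor gene Esr1 at -0.70 (SE 0.095, adjusted p = 0.000146). Of 11 tested epoxygenase and epoxide hydrolase pathway genes 2 rose, Cyp2u1 and Cyp4f17, and 2 fell, Cyp4v3 being one of them.

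The clock list had a larger share of called genes in inguinal tissue than any of the pathway lists above. The list was read because the PAR bZIP factors Dbp, Tef and Hlf are known to act on Nr1i3 and other detoxification genes in liver. Of 17 tested genes 6 rose and 7 fell (76.5%, beside 28.6% of all genes). Arntl, the clock activator BMAL1, was at 2.47, 2.94, 2.44 and 2.67 CPM in wild-type libraries 1 to 4, against 31.7, 28.2 and 22.2 CPM in labelled knockout libraries 2 to 4. Its log2 change was 3.39 (SE 0.15, edgeR adjusted p = 8.01e-09), and the clock gene Npas2 changed by 3.41 (SE 0.25, edgeR adjusted p = 1.24e-06). Dbp was at 48.8, 51.5, 43.4 and 43.9 CPM in wild-type and at 7.08, 5.14 and 8.86 CPM in labelled knockout libraries, a log2 change of -2.72 (SE 0.15, adjusted p = 2.26e-07). The sources used here give no time of day for the collection, and the part of the clock genes in the Cyp2b10 difference was not tested.

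In brown tissue none of the lists of pathway genes held a gene that passed in edgeR. For the clock list 9 of 17 had an unadjusted p under 0.05, beside 18.5% of all genes. Arntl stood at 0.62 (SE 0.13, edgeR adjusted p = 0.072) and Per1 at 1.25 (SE 0.26, edgeR adjusted p = 0.0751). Without labelled knockout library 1, where 18.1% of all genes passed, 5 of 17 clock genes were higher and 4 lower, and 4 of 14 xenobiotic receptors and partners were higher and 1 lower. For the electron transfer and heme list the counts were then 2 higher and 2 lower of 19, and for the CAR and PXR targets 5 higher and 0 lower of 16. Of 12 NRF2 targets 3 were higher and 0 lower, of 12 oxysterol and steroid pathway genes 3 were higher and 1 lower, and of 13 epoxygenase pathway genes 2 were higher and 1 lower. Of 5 aryl hydrocarbon receptor targets only Cyp1b1, itself on that list, was higher and 0 were lower.

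Some lists of other cell markers changed with the inguinal labels, and their counts are to be read beside the 28.6% of all genes that passed. The share called was 91.7% for skeletal muscle and 58.3% for brown and beige adipocyte markers. Of 12 brown and beige adipocyte markers 7 rose and 0 fell, their sum being 1627 to 2418 CPM in wild-type and 3196 to 3992 CPM in labelled knockout libraries, and Ucp1, the heat-producing uncoupling protein gene, rose by 1.24 (SE 0.17, adjusted p = 0.000382). Of 12 skeletal muscle markers 0 rose and 11 fell, the sum being 220.0 to 486 CPM in wild-type and 102 to 113 CPM in labelled knockout libraries. Of 8 endothelial markers 4 fell (50%) and of 8 B-cell markers 2 fell (25%, near the share of all genes). Of 10 adipocyte markers 2 rose and 1 fell (30%), and of 13 adipose progenitor markers 1 rose and 3 fell (30.8%), also near that share. Of 2 tested skin and mammary epithelial markers Cdh1 fell (-1.58, SE 0.22, adjusted p = 0.000201). All 8 epithelial markers summed to 6.07 to 12.8 CPM in wild-type and 2.97 to 4.54 CPM in labelled knockout libraries, with no overlap, and Krt5 was at 0 in all 3 of the latter and in wild-type library 1. None of the 8 T-cell or 8 macrophage markers passed in edgeR. Each of these lists had 0 with an unadjusted p under 0.05, beside 39.9% of all genes. The part of these in the P450 differences was not tested.

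Liver was checked directly because Cyp2b10, Cyp2e1 and Cyp2f2 are all liver genes. Of 13 hepatocyte markers, Ttr and Fga were at 0 in all 7 inguinal libraries, and Fgb and Fgg were also at 0 in all 3 labelled knockout libraries. The summed level, 961 to 1214 CPM in wild-type and 798 to 941 CPM in labelled knockout libraries, was mostly Hp, at 682 to 1058 CPM over these libraries, and Trf, at 75.3 to 142 CPM. Trf fell (log2 change -0.75, SE 0.085, adjusted p = 3.59e-05) and Hp stood at -0.28 (SE 0.11, adjusted p = 0.0738). Alb rose, from 24.4 to 29.1 CPM in wild-type to 33.0 to 35.7 CPM in labelled knockout libraries, with no overlap (0.39, SE 0.095, adjusted p = 0.00743). Apoa1, near the counting floor, was at 0.0288 to 0.161 CPM in wild-type and 0.202 to 0.415 CPM in labelled knockout libraries, also with no overlap. Groups without overlap made up 36.9% of all genes. Serpina1a leaned the other way, at 0.992 to 1.202 CPM in wild-type libraries and at 0.639 and 0.290 CPM in labelled knockout libraries 3 and 4. Its labelled knockout library 2 lay among the wild-type ones, and Serpina1b and Apoa2 overlapped between the labels. Of 5 tested hepatocyte markers 1 rose and 1 fell (40%, beside 28.6% of all genes). The part of liver RNA in the differences of the 3 genes was not tested. In brown tissue Fga was at 4.50, 1.22 and 2.35 CPM in labelled knockout libraries 2 to 4, at 0 in library 1 and at most 0.0900 CPM in wild-type libraries, while Alb was at most 0.421 CPM in every brown library. Apoa2 was at 1.19, 1.24 and 1.01 CPM in brown labelled knockout libraries 2 to 4, at 0.578 CPM in library 1 and at 0.430 to 0.867 CPM in wild-type libraries.

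The genes whose profile over the 15 libraries was most like that of Cyp2b10 were found by scaling each log2 profile to mean 0 and SD 1 and taking the root mean square difference. Of 16857 genes compared the 5 nearest were Gm16074 (0.444), Hsd17b10 (0.455), Tesc (0.467), Iars (0.477) and Dnajc5 (0.492), beside a median of 1.43. The scaling removes the size of the change: Hsd17b10, a mitochondrial dehydrogenase gene, had means of 134.5, 216.8, 207.3 and 226.7 CPM in inguinal wild-type, inguinal labelled knockout, brown wild-type and brown labelled knockout libraries, a far narrower range than Cyp2b10. Cyp1b1 was the nearest of the other 7 genes, at rank 1151.

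When each library's deviation from its own group mean was compared in the same way, so that differences between groups no longer counted, the nearest genes were Spire1 (0.227), Map3k6 (0.254), Mettl6 (0.254), Rpain (0.276) and ENSMUSG00000085607 (0.278). Cyp2f2 was at rank 237 (0.490), the nearest of the 7. Without brown labelled knockout library 1, a choice made after seeing the data, the 5 nearest were other genes (Hpca, Phka2, Scly, Mras and Odf2) and Cyp2f2 was at rank 657. These are descriptions over libraries that share their groups, and no test was made.

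**Figure D4:**
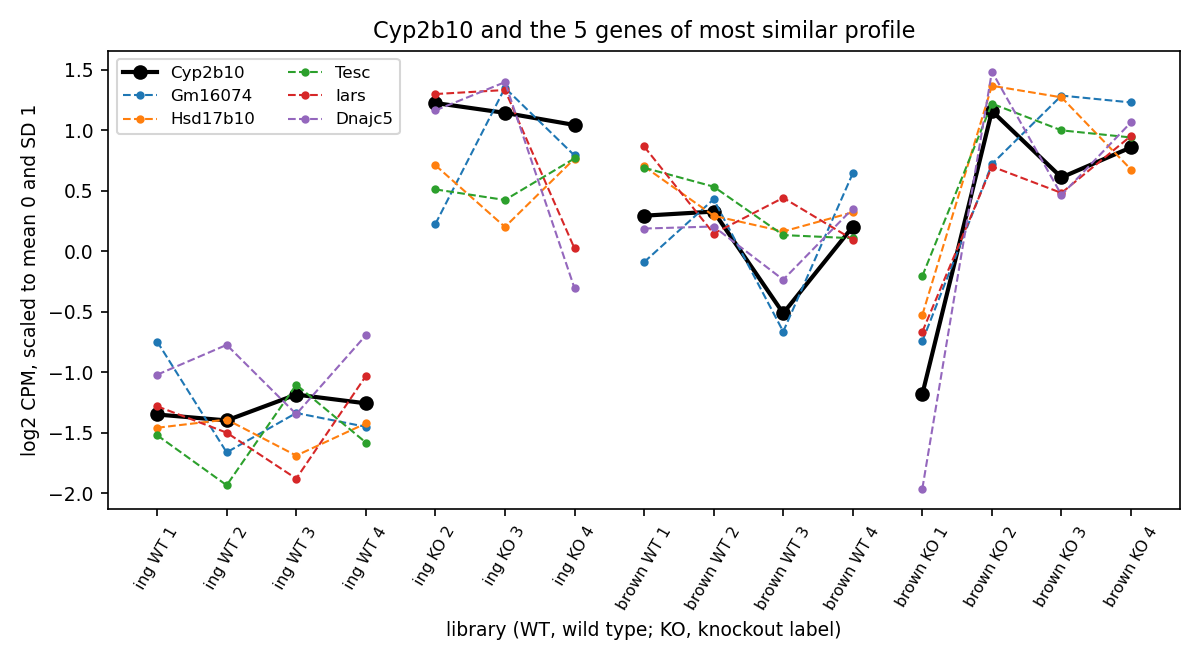
Log2 CPM of Cyp2b10 (black) and of the 5 genes of most similar profile, each scaled to mean 0 and SD 1 over the 15 libraries, by library. All 6 genes are low in the 4 inguinal wild-type libraries and in brown labelled knockout library 1 relative to the other brown labelled knockout libraries. The genes were selected for this likeness.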

How the data were processed

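Polyadenylated RNA of 15 adipose libraries was made into stranded libraries with the Illumina TruSeq kit, per the labels' protocols. Per the submitters' processing notes, mm9 was the genome build and TopHat2 2.1.0, Subread, featureCounts and edgeR were among the tools. The sources used here do not give their roles, the annotation release or the strand setting of counting. The authors deposited raw counts of reads for each gene, without normalization. Of 37991 Ensembl identifiers, 32919 matched a symbol. Total counts were 26059635 to 53923009 per library. No pair of libraries of a group agreed within sampling noise (lowest chi-square per degree of freedom 14.7).

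Every comparison used only the libraries it compares (edgeR 4.0.16 in R 4.3.3): filterByExpr (minimum count 10), TMM scaling, robust quasi-likelihood F-tests and Benjamini-Hochberg adjustment over all genes, with calls at an adjusted p below 0.05. The SE was obtained by dividing the size of the log2 change by the root of the F statistic, and the 95% intervals use it with normal quantiles. All 8 genes passed the filter in every comparison. Levels are TMM-scaled CPM over the 15 libraries. Alternatives were DESeq2 1.42.0 size factors and its Wald test, no filter, limma-voom with quality weights (limma 3.58.1), each library left out in turn, a replicate block, and a fit of all 4 groups together. The fits were also run on simulated counts with known changes, drawn independently for each gene. Such counts hold no outlying library, so the run does not cover a brown library that stands apart.

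The genes, lists and tests were chosen with earlier results of these data known. The naming rule took the 8 genes, the other Cyp2b genes, the 6 largest rises and falls among other called P450 genes of at least 1 CPM, up to 3 genes of smallest p per list, and the 5 genes of most similar profile on each measure. Not all of these are named. Promoter sequences are from RefSeq (GRCm38.p6) and exon lengths from GENCODE M21. Counts without brown labelled knockout library 1 for the lists, and all P450 family counts under the alternatives, were chosen after seeing the data.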

Additional observations from a re-analysis of the deposited data

How the results depend on the processing

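For the 8 genes, 286 log2 differences recomputed without a library kept their direction and side of the threshold (for Cyp2b10 where it was not tested, they moved by less than the SD between libraries), while 7 came to pass, 3 no longer passed and 8 changed sign. Under another setting the counts were 176 kept, 5 that came to pass and 2 that no longer passed. The number passing in inguinal tissue was 2, with 2 to 3 when a library was left out and 1 with all 4 groups in 1 fit, where 2249 of all genes passed. In brown tissue 0 passed, with 0 to 4 when a library was left out and 1 in limma-voom. Of all genes in brown tissue, 41 passed, with 2 to 2905 when a library was left out, 1032 in the DESeq2 Wald test, 3094 in limma-voom, 1151 with all 4 groups, 67 with no filter and 7 with the replicate block. For the difference between tissues 0 of the 7 passed, with 0 to 2 when a library was left out and 2 in limma-voom. Of all genes 1517 passed there, with 632 to 3571 when a library was left out, 2330 in DESeq2, 3652 in limma-voom and 859 with the replicate block. The block changed no call among the 8 genes. Same-numbered libraries did not deviate together throughout: the correlations of their deviations were -0.099, -0.039 and 0.046 in inguinal and 0.093, -0.040, 0.173 and 0.0996 in brown tissue, and not every library correlated best with its own number. Signs turned only for values far from the threshold, all when a library was left out: Nr1i3 ranged from -1.03 to 0.16 in inguinal and from -0.88 to 0.055 in brown tissue, its difference between tissues from -0.77 to 0.67, and Cyp4b1 in brown tissue from -0.14 to 0.39. The cause was not tested. Depth limits Nr1i3 and the Cyp2b10 level of inguinal wild-type libraries, and an exact Poisson interval covers counting error only.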

Other observations

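Male and female liver differ in several P450 levels, so sex-linked genes were read in the libraries. Ddx3y, a Y-linked gene, was at 76.8 to 151.6 CPM in the inguinal libraries and at 114.8 to 187.4 CPM in the brown ones. Xist, the transcript of the inactive X chromosome, was at most 0.471 CPM in the inguinal libraries and ran from 0.569 to 5.94 CPM in the brown ones. All 15 libraries thus carried Y-linked transcripts. Inguinal labelled knockout library 2 had the lowest Ddx3y (76.8 CPM) and Uty (18.7 CPM) of the inguinal libraries. Its sum over the 5 sex-linked genes was 200.2 CPM, the other inguinal libraries being at 255.9 to 324.2 CPM. Its Kdm5d (29.2 CPM) lay among the others, and its Eif2s3y (75.3 CPM) was close to that of wild-type library 3 (75.5 CPM). The cause was not tested.

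Cyp2b10 aside, Cyp26b1, a retinoic acid-degrading enzyme outside the naming rule, had a larger inguinal log2 difference than any P450 gene that passed. It averaged 3.26 ± 1.04 CPM with the wild-type label and 16.4 ± 12.9 CPM with the knockout label (n = 4 and 3), a log2 difference of 2.37 (SE 0.85), and missed the threshold in edgeR (adjusted p = 0.0943). It was picked out after its values were seen.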
